A study of Macaca fascicularis with 64 samples.

Results

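The 10 genes described here are inflammatory targets of the transcription factor NF-kB, taken by symbol from the 28141 genes of the deposited tables: CXCL1, CXCL8, IL6, NFKBIA, TNFAIP3, ICAM1, CCL2, IL1B, RELB and NFKB1. All 10 were listed. They were measured by RNA sequencing in bulk tissue of the cynomolgus monkey, Macaca fascicularis. The 56 newborn libraries came from the SIRT6 mutant animals KO2 and KO3, called KO here, and the wild-type animals WT2 and WT3, called WT. Each animal gave 2 repeat libraries of each of 7 tissues: lung, thymus, kidney, liver, heart, muscle and brain. A further 8 libraries came from wild-type fetuses, 2 each of brain and muscle at gestation month 2 and at month 4. The kind of SIRT6 mutation and how it was made were not described in the sources used here.

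NF-kB is a family of transcription factor dimers, built from NFKB1, NFKB2, RELA, RELB and REL, that inhibitor proteins such as IkBα hold in the cytoplasm. Cytokines, microbial products and tissue injury activate the IkB kinase complex, the inhibitor is degraded, and the freed dimers switch on chemokines, cytokines and adhesion molecules that draw leukocytes into tissue. The same dimers induce their own inhibitors, IkBα (encoded by NFKBIA) and A20 (encoded by TNFAIP3), which close the response, so that both arms can be read from the transcripts of 1 sample. SIRT6, a deacetylase of nuclear chromatin, binds the RELA subunit in mouse and in human cell lines and dampens part of this programme at the histones of its target genes. The comparison of KO with WT newborns addresses whether loss of SIRT6 changed these transcripts in a primate.

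Levels are the authors' FPKM, fragment counts scaled to transcript length and to the mapped fragments of the library, which allows levels of different genes to be set side by side. The 2 values given for an animal are its 2 repeat libraries. The transcript of SIRT6 itself averaged 3.07 to 12.4 FPKM in the KO animals and 6.18 to 12.4 FPKM in the WT animals over the 7 tissues, so with the kind of mutation unknown it gave no check of the genotype labels. Markers of each labelled tissue were higher in all of its own newborn libraries than in any library of another tissue, but 3 lung markers summed to 1884 and 1319 FPKM in the KO lungs against 18060 and 18040 FPKM in the WT lungs, and 4 kidney markers to 313 and 621 FPKM in KO against 3255 and 3050 FPKM in WT. Animal KO2 stood apart: 8 heat shock chaperone genes summed to 14680 to 42260 FPKM in its 7 tissues, while KO3, WT2 and WT3 together ran from 392.7 to 2569 FPKM. KO3 had the highest sum of 10 hypoxia-induced genes in every tissue, with 1088 FPKM in lung against 476 FPKM in KO2 and 329 and 301 FPKM in WT. The 12 macrophage markers summed to 2.68 FPKM in KO3 brain, with only MARCO listed at 0, against 149 FPKM in KO2 brain and 187 and 193 FPKM in the WT brains. The part these differences play in the results was not tested.

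**Figure D1:**
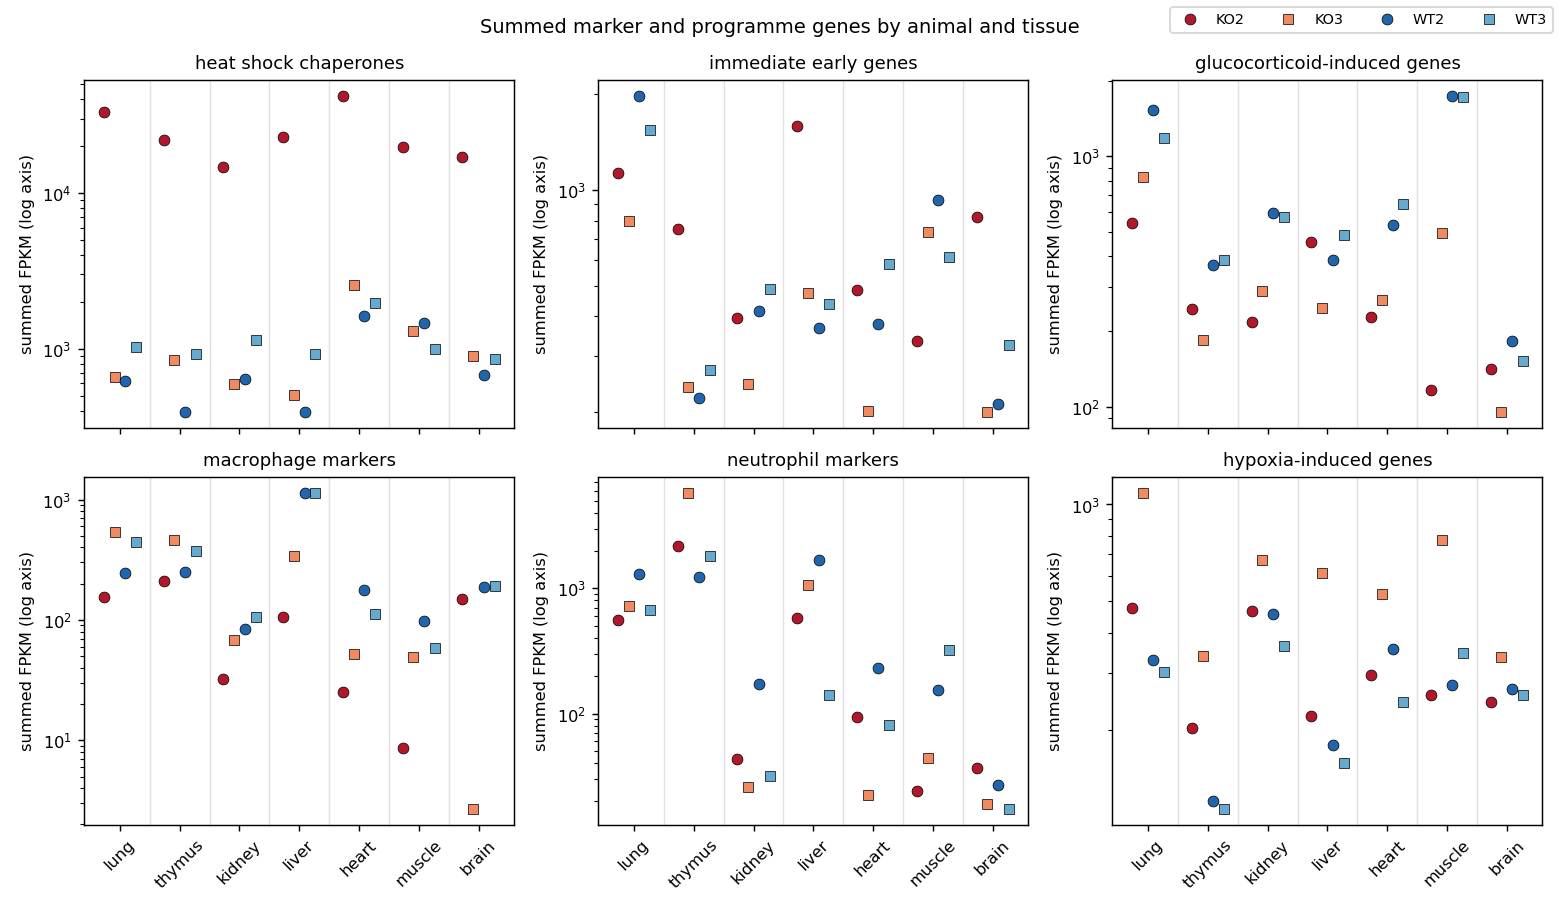
Summed FPKM (log axis) of 6 gene lists in each animal and newborn tissue, with KO2 and KO3 left of WT2 and WT3. The heat shock sum of KO2 lies above the other 3 animals in every tissue, and the macrophage sum of KO3 brain, 2.68 FPKM, lies below those of all other brains.

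The lung held the highest mean of 9 of the 10 genes among the 7 newborn tissues, and TNFAIP3, highest in thymus, was second there. ICAM1, the adhesion molecule on endothelium and epithelium to which leukocyte integrins bind, averaged 63.3 ± 13.6 FPKM in lung and 8.31 ± 3.98 FPKM in thymus, the next tissue (SD, n = 4 animals). CCL2, the chemokine that recruits monocytes, averaged 136 ± 138 FPKM in lung and 9.29 ± 9.12 FPKM in kidney. CXCL8, a neutrophil chemokine, averaged 230.1 ± 311 FPKM in lung and 8.98 ± 3.21 FPKM in thymus. For these 3 genes and for NFKBIA, the lowest lung animal lay above the highest animal of any other tissue, as was so for 1.31% of all genes. The lowest lung animal had 51.5 FPKM of ICAM1 against 13.8 FPKM in the highest animal elsewhere, and 116 FPKM of NFKBIA against 84.7 FPKM. For the other 6 genes the lung animals overlapped with those of another tissue.

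All 10 members passed the test of lung against the mean of the other 6 tissues, all higher in lung (limma on the 28 animal by tissue means, with animal and tissue as terms). CXCL1 and IL6 reached the filter, a mean of 1 FPKM, only through lung, with means of 0.246 and 0.420 FPKM over the other tissues, so their calls are not independent of the filter. The other 8 reached it without lung. Over all 15038 genes 44.1% passed this test in either direction, and 24.2% were higher in lung. Log2 changes are given here and below relative to the median of all genes tested in the same comparison, while the SE and adjusted p are those of the change before that subtraction. CCL2 stood 4.93 higher (SE 0.38, limma adjusted p = 2.8e-10) and CXCL8 4.82 higher (SE 0.51, adjusted p = 5.7e-08). ICAM1 followed at 3.60, the inflammatory cytokine IL1B with a difference of 3.06 before subtraction, CXCL1, another neutrophil chemokine, at 2.79 and the cytokine IL6 at 2.48. The inhibitor genes NFKBIA at 1.86 and TNFAIP3 at 1.50, and the subunit genes NFKB1 at 1.75 and RELB at 1.42, had smaller differences, with limma adjusted p values from 4.7e-08 to 0.00014 among these 4. With the 2 WT animals alone the other 9 passed and CXCL1 lay below the filter and was not tested, and with each animal left out all 10 passed. A summed set of 10 endothelial markers ran from 414 to 1137 FPKM in the 4 lungs, and from 38.8 to 451 FPKM in the other tissues. In bulk tissue, more cells that express a gene and more RNA per cell cannot be told apart.

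**Figure D2:**
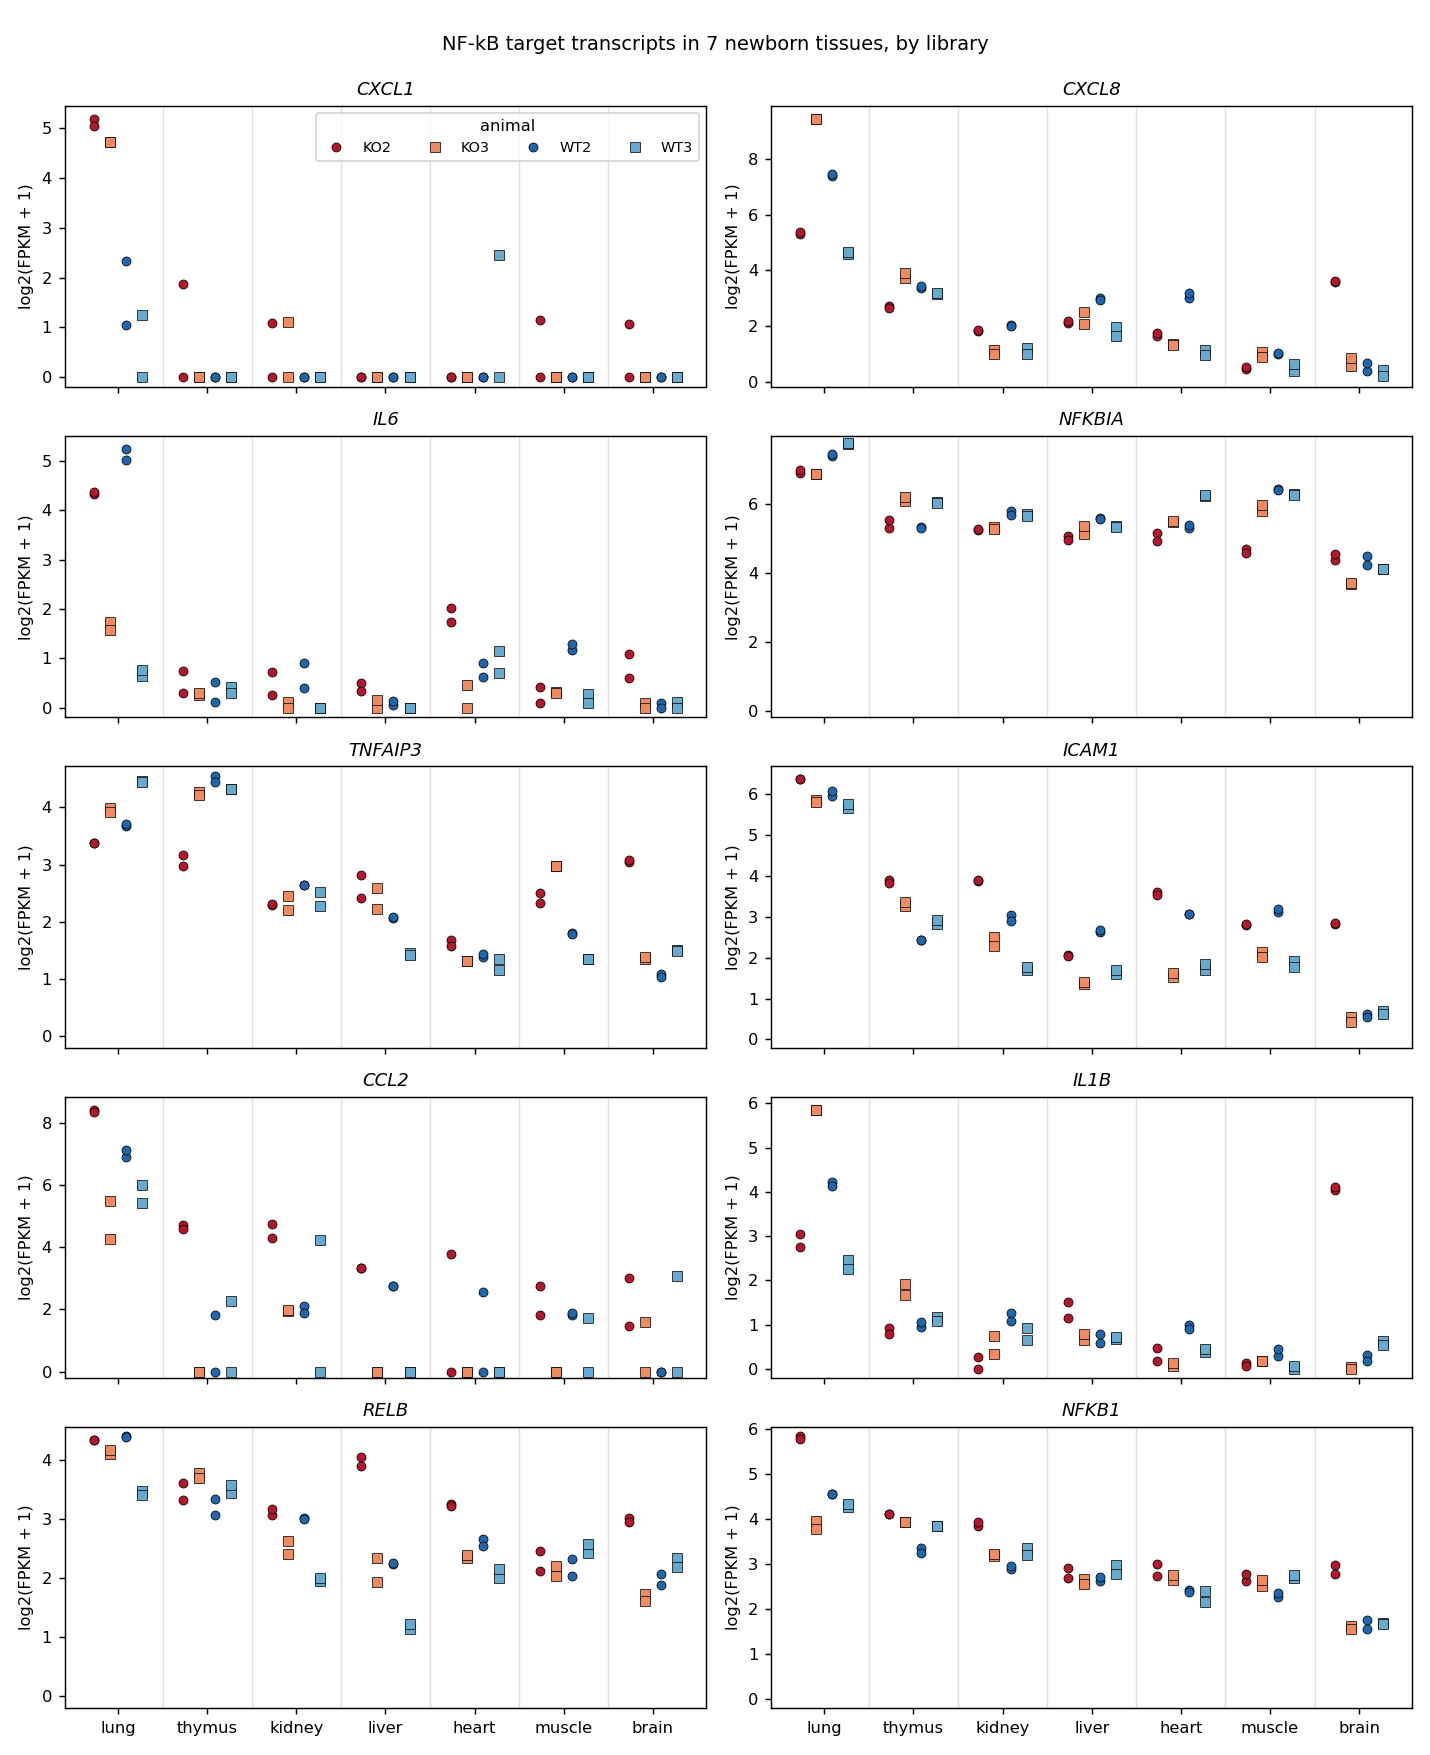
Each point is 1 newborn library, as log2(FPKM + 1), for the 10 genes in 7 tissues, with KO2 and KO3 left of WT2 and WT3. As animal means, lung is highest without overlap for ICAM1, CCL2, CXCL8 and NFKBIA, while single CCL2 libraries of lung and of KO2 thymus and kidney overlap, and the KO2 points of CXCL8, IL1B, ICAM1 and TNFAIP3 stand alone in brain.

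Of the rest of the pathway, all 3 other subunit genes (NFKB2, RELA and REL) were higher in lung, as were 10 of 12 other inhibitors, 4 of 9 kinase complex genes, 15 of 19 receptors and adaptors and 23 of 31 other targets, and 0 genes of these lists were lower, beside the 24.2% of all genes that were higher. Of the receptors 1, and of the targets 3, reached the filter only through lung. The smallest p values were those of PTX3, a soluble pattern recognition protein, at 4.23 (limma adjusted p = 3.2e-10), the interleukin 1 receptor IL1R1 at 2.54 (adjusted p = 4.4e-10), the urokinase receptor PLAUR at 2.23 (adjusted p = 5.8e-09) and the interleukin 1 receptor antagonist IL1RN at 4.22 (adjusted p = 6.3e-09).

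Against the mean of the other 6 tissues, 7 members were lower in brain, where 64.3% of all genes passed in either direction and 33.2% were lower. ICAM1 fell by 1.92 (SE 0.27, limma adjusted p = 6.4e-07), NFKBIA by 1.64 and NFKB1 by 1.26, with CXCL8, TNFAIP3, CCL2 and RELB from −1.37 to −0.62. Without WT2, ICAM1, NFKBIA and NFKB1 alone passed. IL1B did not pass in brain (0.11, SE 0.49), and its change was −0.99 (adjusted p = 0.038, before the median was subtracted) without KO2, the animal with high brain IL1B described below. In thymus 3 members were higher, where 64.6% of genes passed and 30.4% were higher: TNFAIP3 at 1.80 (limma adjusted p = 2e-05), NFKB1 at 0.89 (adjusted p = 0.00053) and RELB at 0.84 (adjusted p = 0.0078), the last of which did not pass without KO3. TNFAIP3 averaged 16.4 ± 6.19 FPKM in thymus and 14.2 ± 4.98 FPKM in lung (SD, n = 4), a gap smaller than the spread. Lymphocyte markers summed to 1008 to 2977 FPKM in the thymuses and to at most 23.5 FPKM elsewhere, and their part was not tested.

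In muscle 5 members were lower than in the other 6 tissues, where 54.8% of genes passed and 40.7% were lower: CXCL8 (−1.71), IL1B (−0.86), CCL2 (−0.78), RELB (−0.28) and NFKB1 (−0.24). The change that was tested, before subtraction, was −0.63 for RELB (SE 0.25) and −0.59 for NFKB1 (SE 0.19). The median of all genes was −0.35, and the relative values were not themselves tested. After quantile normalisation CXCL8 alone of the 5 passed. With each animal left out 2 to 4 members passed, and without KO2 they included NFKBIA, which was higher in muscle (0.54 before the median was subtracted). NFKBIA was also higher with the WT animals alone (0.60 before subtraction), where CCL2 and RELB did not pass. In heart 3 members were lower, where 51% of genes passed and 35.3% were lower: CCL2 (−1.37), TNFAIP3 (−1.03) and NFKB1 (−0.32, and −0.61 before subtraction). CCL2 did not pass with the WT animals alone, nor NFKB1 without WT3. In liver ICAM1 was lower (−0.60, and −1.06 before subtraction, limma adjusted p = 0.0016), where 63.7% of genes passed and 50.3% were lower. It did not pass with the WT animals alone. In kidney 0 of 10 members passed in limma, with 1 at an unadjusted p under 0.05, where 49.8% of genes passed, and 3 (CXCL8, TNFAIP3 and RELB) were lower there after quantile normalisation. Among the other pathway genes, the complement genes C3 and CFB were higher in liver by 8.40 and 6.57, with the interleukin 1 receptors IL1R2 (4.85) and IL1R1 (2.86), and C3 was lower in muscle, heart and kidney. Of the genes with the smallest p values elsewhere, IL1R1, NFKB2, TNFRSF1A and LTBR were lower in brain, at −2.70 to −2.23. TNFAIP8, NFKBID, CYLD and BIRC3 were higher in thymus by 1.60 to 3.42. TNFAIP6 and MAP3K14 were higher and CFB was lower in muscle, CFB, CD83 and TAB3 were lower in heart, and PLAU, IL1R1 and LTBR were higher in kidney.

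Between KO and WT newborns, no member passed the test in any tissue. Of the 70 pairs of member and tissue, 54 passed the filter of a mean of 1 FPKM and 0 of those passed limma at an adjusted p of 0.05. The background was 0% of genes in brain (0 of 13392, with 1701 at an unadjusted p under 0.05), 2.32% in muscle, 0.00772% in thymus, 1.1% in liver, 0.18% in heart, 0% in lung (0 of 13243, with 963 at an unadjusted p under 0.05) and 5.78% in kidney. At an unadjusted p under 0.05 there were 3 such pairs: CXCL1 in lung, and NFKBIA and TNFAIP3 in muscle. With the 7 tissues of an animal averaged first, 0 of 10 members passed, against 0.492% of all genes, and 1 member, CXCL1, had an unadjusted p under 0.05. With 2 KO and 2 WT animals, the smallest two-sided p of an exact permutation test is 0.33. KO and WT animals that do not overlap, as described below for members and other targets, reach no smaller p than that. The share of all genes without such overlap was not counted. Statements below that groups did not overlap therefore describe the values and do not set the members apart from other genes.

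**Figure D3:**
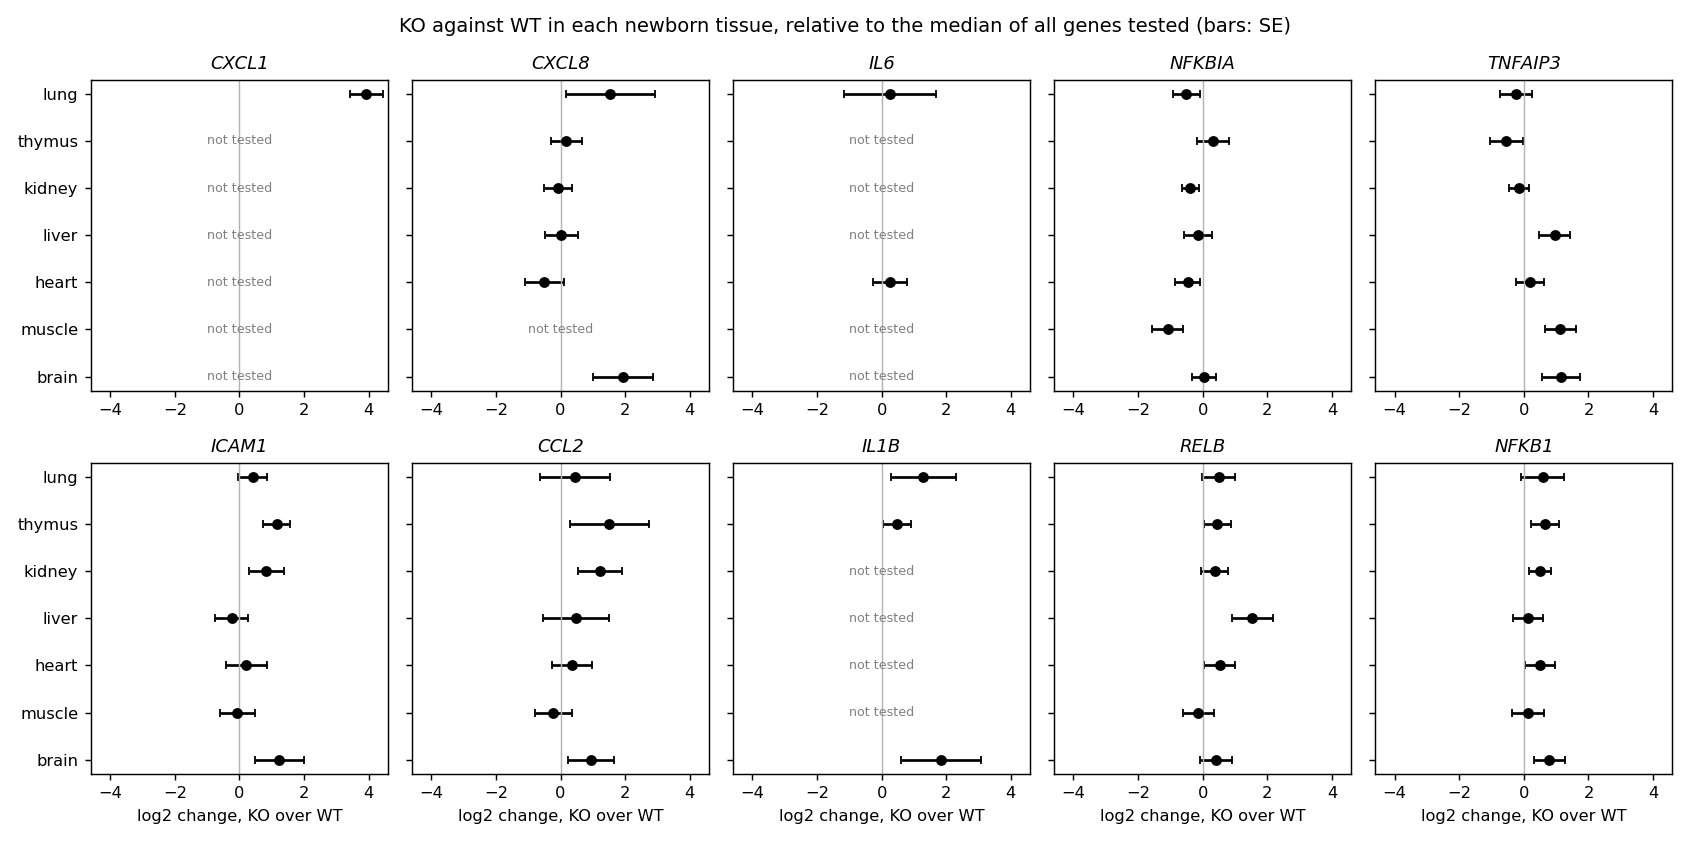
Log2 change of KO over WT for each gene and newborn tissue, relative to the median of all genes tested in the tissue; bars are the SE and 2 KO and 2 WT animals enter each test. No point passed the adjusted p threshold of 0.05, and CXCL1 in lung, at 3.93, lies farthest from 0.

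CXCL1 in lung was the member with the smallest p between genotypes. KO2 had 35.4 and 31.9 FPKM and KO3 had 25.4 and 25.4 FPKM, against 4.02 and 1.07 FPKM in WT2 and 0 and 1.36 FPKM in WT3. All 4 KO libraries lay above all 4 WT libraries, and both KO animals were high. The relative log2 change was 3.93 (SE 0.52), with an unadjusted p of 0.00015 and a limma adjusted p of 0.17 over 13243 genes. In the lung fit it passed at an adjusted p of 0.0063 without KO3 and of 0.02 without KO2, where the lone KO animal is assumed to vary like the WT animals, and it did not pass without WT2 (0.24) or WT3 (0.48). With all tissues in 1 fit it passed (adjusted p = 9.2e-06), a fit whose filter it reached only through the KO lungs. The lung marker sums given above were lower in both KO lungs, and their part in this difference was not tested.

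The KO change of CXCL1 was called as differing between tissues, in a test that depended on the filter and on single settings. An F test of whether the KO change varied among the 7 tissues called CXCL1 alone of the 10 members (limma adjusted p = 0.00042), against 5.73% of all genes. CXCL1 reached the filter of this fit only through the KO lungs, with a mean of 0.351 FPKM over the other 26 animal by tissue means, so the call is not independent of the filter. That call was lost without WT3 (adjusted p = 0.062) and with a pseudocount of 0.1 (adjusted p = 0.06). Outside the lung CXCL1 was listed at 0 in every liver library and above 0 in 6 libraries, 5 of them KO, at 1.10 to 4.52 FPKM. Its smallest value above 0 in any newborn library was 1.07 FPKM and 43 of the 56 libraries were at 0, so low values are coarse. The F test takes its spread from all 7 tissues, so its p rests partly on tissues where CXCL1 was mostly at 0.

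CXCL1 has near-identical neighbours, CXCL2 and CXCL3. How fragments were shared between copies was not described in the sources used here, so the CXCL1 values are uncertain. CXCL2, on the list of other targets, was either not listed or under a mean of 1 FPKM over the newborn libraries. Its values are not given here. CXCL3 had a different pattern in the same lungs, chosen for display after its values were seen. It stood at 2.82 FPKM in KO2 and 66.7 FPKM in KO3, against 14.9 FPKM in WT2 and 1.25 FPKM in WT3, as means of the 2 libraries. The groups overlapped for CXCL3, and KO2, with the most CXCL1, was near the low end. CXCR2, the receptor of both chemokines on neutrophils, stood at 1.14 and 0.347 FPKM in the KO lungs and 2.73 and 3.26 FPKM in the WT lungs. Summed neutrophil markers in lung were 554 FPKM in KO2 and 729 FPKM in KO3, against 1295 FPKM in WT2 and 674 FPKM in WT3, with all 12 markers above 0 in each. S100A8 and S100A9 made up most of each sum. ELANE, PRTN3, AZU1, LTF and CXCR2 were lower in both KO lungs than in both WT lungs, and the groups overlapped for the rest of the list. The part of these markers in the CXCL1 levels was not tested.

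CXCL8 and IL1B varied together from animal to animal in lung, with no order by genotype. CXCL8 was at 38.4 and 40.9 FPKM in KO2 and 690.1 and 683 FPKM in KO3, against 167 and 175 FPKM in WT2 and 22.8 and 24.0 FPKM in WT3. IL1B was at 7.29 and 5.74 FPKM in KO2 and 57.1 and 57.1 FPKM in KO3, against 17.7 and 16.5 FPKM in WT2 and 4.52 and 3.75 FPKM in WT3. For both genes KO3 was highest, then WT2, KO2 and WT3, and the groups overlapped. Repeat libraries of an animal lay closer to each other than the animals of a genotype did. The relative log2 changes were 1.54 for CXCL8 (SE 1.37, limma adjusted p = 0.87) and 1.29 for IL1B (SE 1.01, adjusted p = 0.86). Across the 28 animal by tissue means of log2(FPKM + 1), the Pearson correlation of CXCL8 and IL1B was 0.92, and 0.88 after each tissue's mean was removed; the points share animals and libraries and carry no p.

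IL6 and CCL2 had other orders of the same 4 lungs. IL6 was at 19.1 and 19.7 FPKM in KO2 and 2.35 and 1.99 FPKM in KO3, against 31.5 and 36.9 FPKM in WT2 and 0.556 and 0.699 FPKM in WT3. CCL2 was at 341 and 327 FPKM in KO2 and 44.1 and 18.1 FPKM in KO3, against 118 and 137 FPKM in WT2 and 41.5 and 63.0 FPKM in WT3. The groups overlapped for both, and neither passed (IL6 0.26, SE 1.43, limma adjusted p = 0.99; CCL2 0.45, SE 1.07, adjusted p = 0.97). IL6 is made by fibroblasts and endothelium as well as by macrophages, and outside the lung its animal means were at most 2.70 FPKM, in KO2 heart. It was tested in lung and heart alone, since its mean was under 1 FPKM in the other tissues.

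CCL2 was highest in KO2 in all 7 tissues. In thymus it was at 25.1 and 23.0 FPKM in KO2 and at 0 in both KO3 libraries, against 0 and 2.51 FPKM in WT2 and 0 and 3.85 FPKM in WT3. In kidney KO2 had 26.0 and 18.6 FPKM and KO3 2.89 and 2.94 FPKM, against 3.35 and 2.68 FPKM in WT2 and 17.8 and 0 FPKM in WT3. KO2 was high and KO3 lay within or below the WT values in both. Neither tissue passed with both KO animals (limma adjusted p = 0.75 in thymus and 0.36 in kidney). KO2 alone passed against the WT animals in thymus (log2 change 3.62, adjusted p = 0.014) and in kidney (2.47, adjusted p = 0.0035), and with KO3 alone the changes were −1.02 and −0.09, all 4 before the median was subtracted. In those fits of KO2 alone 6.48% of all genes passed in thymus and 11.8% in kidney. CCL2 was listed at 0 in 22 of 56 libraries, in WT3 kidney at 0 in 1 repeat and 17.8 FPKM in the other, so single libraries are imprecise.

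ICAM1 was likewise highest in KO2 in 5 of the 7 tissues. In thymus it was at 14.0 and 13.1 FPKM in KO2 and 8.65 and 9.35 FPKM in KO3, against 4.42 and 4.37 FPKM in WT2 and 6.03 and 6.53 FPKM in WT3. Both KO animals lay above both WT animals there, with a relative log2 change of 1.15 (SE 0.42) that did not pass (limma adjusted p = 0.7). In kidney KO2 had 13.6 and 13.9 FPKM and KO3 4.70 and 3.91 FPKM, against 7.20 and 6.41 FPKM in WT2 and 2.27 and 2.42 FPKM in WT3, and the groups overlapped. In lung, where it was most abundant, ICAM1 was 69.1 FPKM in KO and 57.6 FPKM in WT on average (relative log2 change 0.41, SE 0.45, adjusted p = 0.93). ICAM1 and CCL2 correlated at 0.85 over the 28 means and at 0.68 after tissue means were removed.

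NFKBIA, the gene of IkBα, was the most abundant member in every tissue except lung, where CXCL8 and NFKBIA had means of 230.1 and 157 FPKM. In muscle it was at 24.9 and 22.9 FPKM in KO2 and 54.7 and 62.0 FPKM in KO3, against 85.9 and 83.4 FPKM in WT2 and 77.4 and 76.7 FPKM in WT3. All KO libraries lay below all WT libraries, KO2 the farther. The relative log2 change was −1.09 (SE 0.47, limma adjusted p = 0.29). In lung NFKBIA was at 120.1 and 127 FPKM in KO2 and 116 and 117 FPKM in KO3, against 169 and 176 FPKM in WT2 and 214 and 218 FPKM in WT3. In kidney it was at 36.7 and 37.9 FPKM in KO2 and 39.5 and 37.6 FPKM in KO3, against 54.7 and 50.7 FPKM in WT2 and 51.8 and 49.2 FPKM in WT3. The groups did not overlap in either tissue, and neither change passed (lung −0.51, SE 0.42, adjusted p = 0.8; kidney −0.39, SE 0.26, adjusted p = 0.39).

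NFKBIA is also induced by glucocorticoids, and 9 listed glucocorticoid-induced genes had lower sums in both KO animals in every tissue except liver. They summed to 116 FPKM in KO2 muscle and 493 FPKM in KO3 muscle, against 1749 and 1728 FPKM in the WT muscles. In lung the sums were 540.1 and 830.2 FPKM in KO and 1525 and 1185 FPKM in WT, and in kidney 217 and 289 FPKM in KO and 593 and 572 FPKM in WT. They were also lower in brain (142 and 95.3 FPKM in KO, 184 and 153 FPKM in WT), thymus (246 and 185 FPKM in KO, 370 and 385 FPKM in WT) and heart (228 and 267 FPKM in KO, 532 and 644 FPKM in WT), where the NFKBIA groups overlapped. In liver they overlapped, at 456 and 248 FPKM in KO and 385 and 488 FPKM in WT, where NFKBIA did not. Their part in the NFKBIA levels was not tested. In brain, thymus, liver and heart NFKBIA had relative log2 changes from −0.47 to 0.31, with the groups not overlapping in liver (31.4 and 37.2 FPKM in KO, 46.9 and 40.0 FPKM in WT as animal means).

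TNFAIP3, whose product A20 removes ubiquitin from signalling adaptors, lay the opposite way to NFKBIA in muscle. It was at 4.64 and 4.03 FPKM in KO2 and 6.88 and 6.83 FPKM in KO3, against 2.49 and 2.44 FPKM in WT2 and 1.55 and 1.54 FPKM in WT3. Both KO animals lay above both WT animals, at a relative log2 change of 1.12 (SE 0.48, limma adjusted p = 0.29). In liver it was at 6.09 and 4.32 FPKM in KO2 and 3.65 and 5.03 FPKM in KO3, against 3.17 and 3.25 FPKM in WT2 and 1.75 and 1.68 FPKM in WT3, again without overlap (0.95, SE 0.47, adjusted p = 0.49). In thymus KO2 stood low, at 6.91 and 8.01 FPKM, with KO3 at 18.2 and 17.5 FPKM, against 22.3 and 20.8 FPKM in WT2 and 18.9 and 18.9 FPKM in WT3. Lymphocyte markers summed to 1008 FPKM in KO2 thymus and 2307 FPKM in KO3 thymus, against 2183 FPKM in WT2 and 2977 FPKM in WT3. Their part in the TNFAIP3 levels was not tested.

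The subunit genes NFKB1, which encodes the p105 precursor of p50, and RELB, the partner of p52 in the noncanonical pathway, were high in single KO2 tissues. In lung NFKB1 was at 56.2 and 54.2 FPKM in KO2 and 14.4 and 12.8 FPKM in KO3, against 22.4 and 22.6 FPKM in WT2 and 18.4 and 19.2 FPKM in WT3. KO2 was high and KO3 lowest, so the 2 KO animals lay on opposite sides of WT, at 1.38 and −0.56 from the mean of the WT animals on the log2 scale (relative change 0.58, SE 0.67, limma adjusted p = 0.92). In liver RELB was at 15.7 and 13.9 FPKM in KO2 and 4.09 and 2.83 FPKM in KO3, against 3.72 and 3.76 FPKM in WT2 and 1.19 and 1.34 FPKM in WT3. KO2 alone was high, 2.27 above the WT mean on the log2 scale against 0.43 for KO3, and the relative log2 change of 1.54 (SE 0.64) did not pass (adjusted p = 0.36). With either KO animal left out, RELB in liver and NFKB1 in lung did not pass. The immediate early genes summed to 1578 FPKM in that KO2 liver and 474 FPKM in KO3 liver, against 369 and 439 FPKM in the WT livers. Their part in the RELB levels was not tested. NFKB1 was highest in KO2 in 5 of the 7 tissues and RELB in 4.

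In brain the KO animals stood far apart. IL1B was at 15.4 and 16.3 FPKM in KO2 and 0.0375 and 0 FPKM in KO3, against 0.246 and 0.130 FPKM in WT2 and 0.544 and 0.459 FPKM in WT3. CXCL8 was at 11.1 and 11.2 FPKM in KO2 and 0.464 and 0.804 FPKM in KO3, against 0.313 and 0.588 FPKM in WT2 and 0.340 and 0.149 FPKM in WT3. ICAM1 was at 6.10 and 6.15 FPKM in KO2 and 0.462 and 0.345 FPKM in KO3, against 0.546 and 0.471 FPKM in WT2 and 0.622 and 0.527 FPKM in WT3. In all 3 genes KO2 alone was high, and KO3 was at or below WT for IL1B and ICAM1. TNFAIP3 was at 7.22 and 7.42 FPKM in KO2 and 1.56 and 1.61 FPKM in KO3, against 1.13 and 1.04 FPKM in WT2 and 1.85 and 1.79 FPKM in WT3. NFKB1 was at 6.93 and 5.91 FPKM in KO2 and 2.08 and 1.92 FPKM in KO3, against 1.93 and 2.35 FPKM in WT2 and 2.22 and 2.17 FPKM in WT3. RELB was at 7.09 and 6.78 FPKM in KO2 and 2.33 and 2.06 FPKM in KO3, against 2.69 and 3.19 FPKM in WT2 and 4.09 and 3.58 FPKM in WT3. KO2 again stood above the other 3 animals, and KO3 was lowest for RELB.

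Relative to the mean of the 2 WT brains, all 10 members were higher in KO2 brain, by a median of 1.34 on the log2 scale, where the median of all genes was −0.08. In KO3 brain 3 of 10 were higher, with a median of −0.04. With both KO animals no member passed, at relative log2 changes of 1.93 for CXCL8 (SE 0.92, limma adjusted p = 0.43), 1.84 for IL1B (SE 1.25, adjusted p = 0.55), 1.24 for ICAM1 (SE 0.77) and 1.14 for TNFAIP3 (SE 0.59). Without KO3, 5 members passed, CXCL8, IL1B, ICAM1, TNFAIP3 and NFKB1, with adjusted p values of 0.013 to 0.043, where 17.5% of all genes passed. Without KO2, 0 passed and the change of NFKB1 was −0.07. CXCL8, IL1B and ICAM1 reached the filter of 1 FPKM in brain only through KO2, so their presence among the tested genes is not independent of its level. In KO2 brain the heat shock sum was 16950 FPKM against 895.5 FPKM in KO3 and 682 and 862 FPKM in WT, and the immediate early sum was 822 FPKM against 201 FPKM in KO3 and 213 and 325 FPKM in WT. Their part in the KO2 brain values was not tested.

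**Figure D4:**
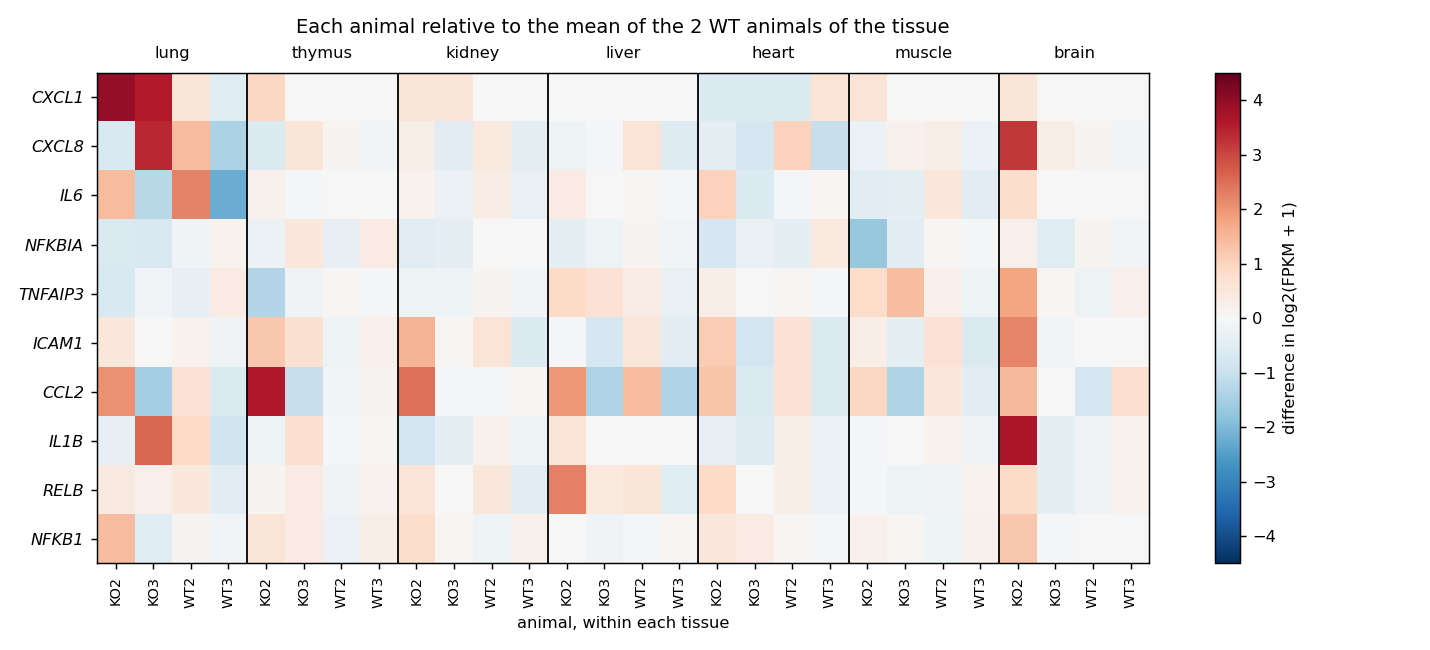
Difference of each animal's log2(FPKM + 1) from the mean of the 2 WT animals of the tissue, for 10 genes, 7 tissues and the animals KO2, KO3, WT2 and WT3. The KO2 column of brain is above 0 for all 10 genes and the KO3 column for 3, while CXCL1 in lung is high in both KO animals.

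Relative to the median of all genes, 8 of 8 members tested lay higher in KO brain, 7 of 8 in thymus, 5 of 7 in liver, 6 of 8 in heart, 8 of 10 in lung, 4 of 7 in kidney and 2 of 6 in muscle. Their medians ran from −0.10 in muscle to 1.04 in brain. In the mean of the 7 tissues 9 of 10 lay higher, with a median of 0.44. By definition, as many of all genes lie above their median as below it. Before subtraction NFKBIA in brain (−0.15), CXCL8 in thymus (−0.03) and liver (−0.17) and NFKB1 in liver (−0.07) were lower in KO. The other members counted as higher were higher before subtraction too. None of the members tested passed singly, and the KO2 values described above enter every count. Members at low levels were tested only where an animal raised their mean. Heart had 8 members tested at relative log2 changes of −0.50 (CXCL8) to 0.52 (RELB), and kidney 7 members at −0.39 (NFKBIA) to 1.23 (CCL2). IL1B in kidney was too low to test and stood at 0.0991 and 0.467 FPKM in the KO animals and 1.26 and 0.738 FPKM in the WT animals, which did not overlap as animal means. IL1B in heart was also below the filter, at 0.261 and 0.0655 FPKM in KO and 0.931 and 0.339 FPKM in WT. The summed macrophage markers stood at 32.1 and 67.7 FPKM in the KO kidneys and 83.6 and 106 FPKM in the WT kidneys, and at 25.1 and 52.4 FPKM in the KO hearts and 176 and 112 FPKM in the WT hearts. The KO livers summed to 105 and 340.0 FPKM and the WT livers to 1140 and 1133 FPKM. IL1B, also untested there, was at 1.53 and 0.655 FPKM in the KO livers and 0.618 and 0.623 FPKM in the WT livers. Only KO2 lay above the WT libraries. The KO3 libraries, at 0.578 and 0.732 FPKM, lay within those of WT2, at 0.499 and 0.736 FPKM. The part of the macrophage sums in the IL1B levels was not tested.

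The other NF-kB target genes that passed between genotypes were all lower in KO, as were most of all genes that passed, 191 of 281 in muscle and 664 of 806 in kidney. In muscle 2 of 18 targets fell, where 1.58% of all genes did: SOD2, the mitochondrial superoxide dismutase, by 2.43 (SE 0.49, limma adjusted p = 0.0075), and CSF3, the granulocyte growth factor, by 1.91 (SE 0.46, adjusted p = 0.023). SOD2 was at 21.6 and 67.7 FPKM in the KO muscles and 158 and 283 FPKM in the WT muscles, and CSF3 at 0.0311 and 0.833 FPKM in KO and 4.43 and 3.84 FPKM in WT. The groups did not overlap for either gene, and CSF3 reached the filter only through the WT muscles. Neutrophil markers summed to 23.9 and 44.2 FPKM in the KO muscles and 155 and 324.5 FPKM in the WT muscles, and the glucocorticoid sums given above were lower in KO muscle too; their part was not tested. In kidney 4 of 26 targets fell, where 4.76% of all genes did: SOD2 by 1.80 (adjusted p = 0.015), the stress response gene GADD45B by 1.49 (adjusted p = 0.025), the iron-binding lipocalin LCN2 by 1.44 (adjusted p = 0.048) and the immediate early gene IER3 by 1.08 (adjusted p = 0.049). LCN2 stood at 1.03 and 0.355 FPKM in the KO kidneys and 4.13 and 3.19 FPKM in the WT kidneys. It reached the filter only through the WT kidneys, so its call is not independent of the filter. SOD2 stood at 45.9 and 28.3 FPKM in the KO kidneys and 122 and 142 FPKM in the WT kidneys. The kidney and glucocorticoid sums given above were also lower in KO kidney, and their part was not tested. These calls changed with single animals and settings. Without WT2, or without WT3, none of the 4 in kidney passed. In muscle SOD2 was lost without KO2 or WT3, and CSF3 without KO2, WT2 or WT3 and with libraries correlated within an animal. LCN2 and IER3 were lost with a pseudocount of 0.1, none of the 6 passed without a level filter or with quantile normalisation, and none of the 4 in kidney passed in 1 fit of all tissues.

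SOD2 was also lower in both KO animals in brain (16.0 and 14.9 FPKM in KO, 33.0 and 31.8 FPKM in WT) and liver (30.1 and 49.3 FPKM in KO, 56.4 and 90.4 FPKM in WT), where it did not pass. In thymus and heart the groups overlapped, and so they did in lung, where KO2 and KO3 had 218 and 1066 FPKM and WT2 and WT3 had 429 and 206 FPKM, the order of CXCL8. No gene of the subunit, inhibitor, kinase or receptor lists passed in any tissue. In the F test over tissues 1 of 19 receptor genes passed, TNFRSF12A, the receptor of the cytokine TWEAK (adjusted p = 0.006), lost without WT2 (adjusted p = 0.24) or WT3 (adjusted p = 0.13). TNFRSF12A was at 122 FPKM in KO2 thymus and 5.46 FPKM in KO3 thymus, against 3.69 and 3.54 FPKM in the WT thymuses. In brain both KO animals also lay above both WT animals. In muscle, liver, heart and lung KO2 lay above both WT animals and KO3 below both. The lung values were 339 FPKM in KO2 and 18.4 FPKM in KO3, against 219.5 FPKM in WT2 and 52.7 FPKM in WT3. In kidney KO2 lay between the WT animals and KO3 below both.

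The genes most like each member over the 28 animal by tissue means, by Pearson correlation of log2(FPKM + 1), are given as a description, since the points share animals and most of the range comes from lung. For CXCL8 they were TREM1 (0.921), IL1B (0.916) and PLAUR (0.913), and for IL1B they were FCGR2A (0.927), CXCL8 and CCL3 (0.898). IL6 was closest to HAS2 (0.875), PTX3 (0.859) and LIF (0.858), and CCL2 to CCL11 (0.894), ARSJ (0.864) and ICAM1 (0.850). ICAM1 was closest to ELF4 (0.886), SBNO2 (0.882) and AGER (0.881), NFKB1 to SBNO2 (0.924) and MSN (0.890), and RELB to SBNO2 (0.828), IRF1 (0.823) and MMP1 (0.818). TNFAIP3 was closest to IL7R (0.881), CD69 (0.872) and RUNX1 (0.859), NFKBIA to MMP19 (0.877), TAGLN2 (0.876) and CYBRD1 (0.875), and CXCL1 to CCL13 (0.927), UPK3B (0.879) and RNASE10 (0.850). Among the members, the pair CXCL8 and IL1B kept 0.69 without the lungs, ICAM1 and NFKB1 0.73, and CXCL1 and CXCL8 had −0.04 without the lungs and 0.71 with them.

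In the wild-type fetuses 4 of the 5 secreted members were at or near 0, and CCL2 was above 0 in muscle. CXCL1 was listed at 0 in all 8 libraries, and CXCL8, IL6 and IL1B did not exceed 0.170 FPKM in any. CCL2 was at 0 in all 4 brain libraries, and in muscle at 15.3 and 0 FPKM in month 4 and 9.94 and 12.6 FPKM in month 2. That 0 in 1 of the 2 month 4 libraries leaves the CCL2 change undetermined: it was −3.61 with that library alone for month 4 and 0.42 with the other, before subtraction. The 2 libraries of a month are not stated to be separate fetuses, so p values here rest on library-to-library spread, part of which may be technical.

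TNFAIP3 and NFKB1 were higher at month 4 than at month 2 in fetal muscle. TNFAIP3 was at 4.96 and 5.08 FPKM in month 4 and 1.57 and 1.30 FPKM in month 2, a relative log2 rise of 1.14 (SE 0.22, limma adjusted p = 0.0016). NFKB1 was at 5.93 and 5.14 FPKM in month 4 and 3.20 and 3.24 FPKM in month 2 (0.46, SE 0.21, adjusted p = 0.038). Neither gene's groups overlapped. These were 2 of 6 members tested, where 37.9% of all genes passed and 22.3% were higher. NFKB1 did not pass without a level filter (adjusted p = 0.09), with quantile normalisation (adjusted p = 0.077), or without month 4 replicate 1 or either month 2 library (adjusted p = 0.056 to 0.27). NFKBIA was at 26.8 and 28.8 FPKM in month 4 and 20.4 and 21.0 FPKM in month 2 (0.24, SE 0.17, adjusted p = 0.085). Of the other pathway genes in muscle, 4 of 18 targets, 3 of 14 receptors, 1 of 9 kinase genes and 1 of 2 subunits rose. Those that fell were 1 receptor, 1 kinase gene and 1 of 9 inhibitors, where 1934 of 12352 genes fell. The shares of targets and receptors that rose were near the 22.3% of all genes. SOD2 rose by 1.03 (adjusted p = 0.001), GADD45B by 0.96 (adjusted p = 0.002) and CFLAR, an inhibitor of caspase 8, by 0.78 (adjusted p = 0.0082), and IKBKG, the scaffold of the IkB kinase complex, fell by 1.03 (adjusted p = 0.0039). CFLAR and IKBKG did not pass without either month 2 library (adjusted p = 0.052 to 0.12).

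In fetal brain 0 of 4 members tested passed in limma, with 1, RELB, at an unadjusted p under 0.05, where 4.01% of all genes passed. RELB was at 2.30 and 2.42 FPKM in month 4 and 1.10 and 1.22 FPKM in month 2, without overlap (0.57, SE 0.24, limma adjusted p = 0.19). ICAM1 did not exceed 0.140 FPKM in fetal brain. 0 genes of the 5 other pathway lists passed there.

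The newborn values of the 4 genes measured well at all 3 stages are set beside these without a test, because the 2 tables were deposited apart. NFKBIA in muscle was at a mean of 20.7 FPKM in month 2, 27.8 FPKM in month 4, and 41.1 FPKM in newborn KO and 80.9 FPKM in newborn WT. The KO2 muscle, at 23.9 FPKM, was the only newborn muscle within the fetal range of library values. TNFAIP3 in muscle was at 1.43 FPKM in month 2, 5.02 FPKM in month 4, and 5.59 FPKM in newborn KO and 2.00 FPKM in newborn WT.

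**Figure D5:**
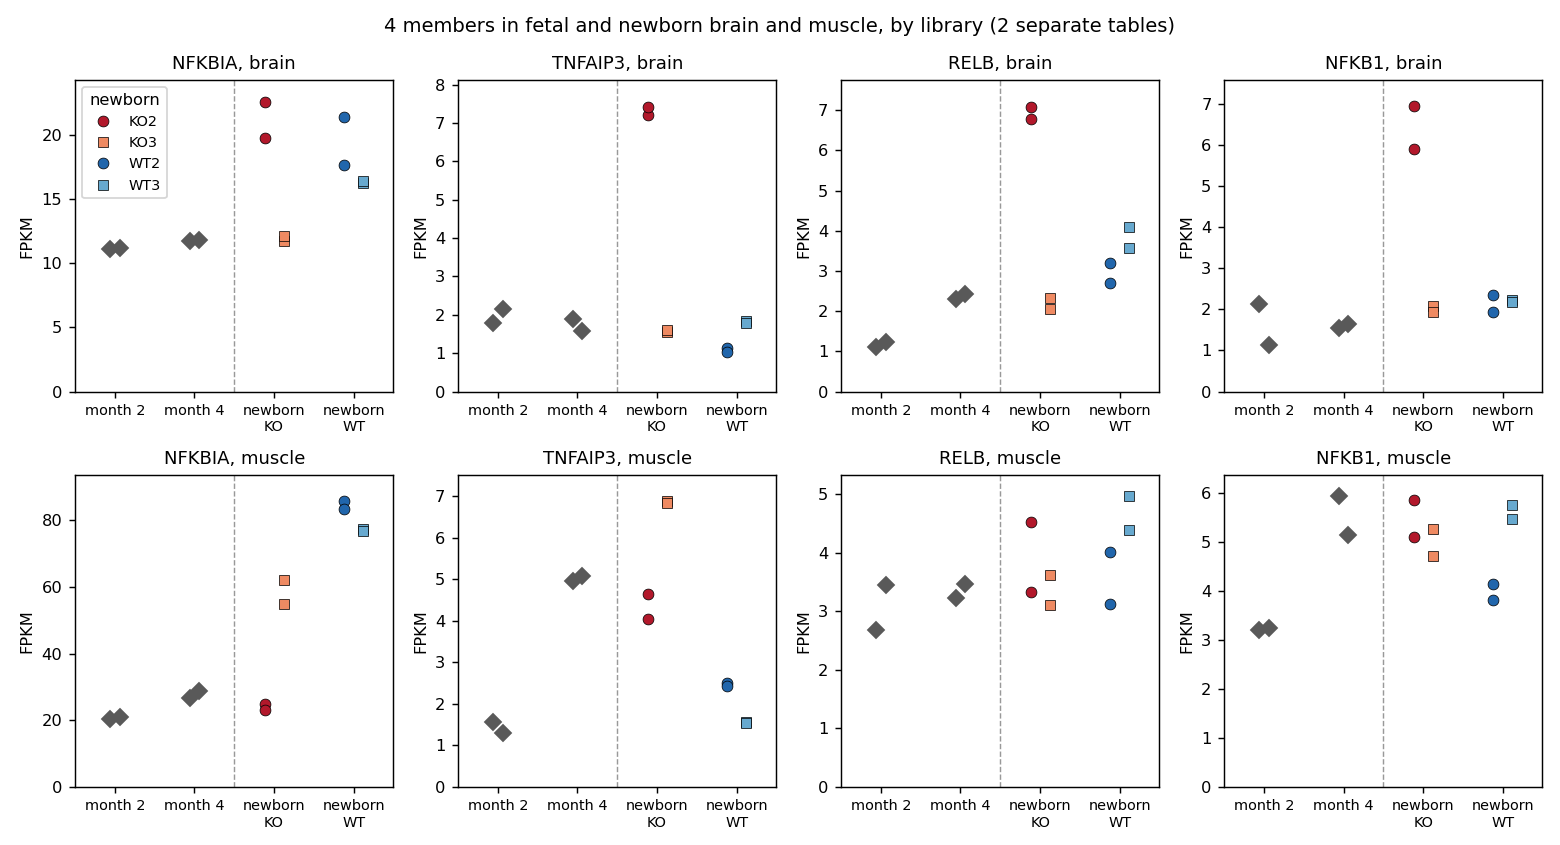
FPKM of NFKBIA, TNFAIP3, RELB and NFKB1 in brain and muscle, by library, at gestation month 2, month 4 and in newborn KO and WT animals; the dashed line parts the fetal from the newborn table. In muscle NFKBIA is highest in newborn WT, at 76.7 to 85.9 FPKM, and in brain KO2 is above the other newborns for TNFAIP3, RELB and NFKB1.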

How the data were processed

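RNA was taken from whole tissue with TRIzol, made into TruSeq libraries and sequenced on an Illumina HiSeq instrument, per the labels' protocols. Cufflinks 2.0.2, HISAT 0.1.6 and CASAVA are listed, without their roles, per the submitters' processing notes. The authors deposited FPKM per gene in 1 newborn and 1 fetal table; the genome build and the handling of strand were not given in the sources used here. FPKM keeps no read depth, so the depth per library is unknown, no interval or detection floor is given, and a 0 may be a failed estimate. Columns left unused numbered 0, and 721 genes under LOC identifiers took the symbol of a RefSeq table (T2T-MFA8v1.1, used for names alone).

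Titles were read as 4 newborn animals with 2 repeat libraries each, which were averaged as log2(FPKM + 1); the labels do not say if repeats came from separate tissue pieces. Genes with a mean of 1 FPKM or more over a comparison were fitted with limma 3.58.1 (trend; R 4.3.3, statmod 1.5.0), at a Benjamini-Hochberg adjusted p of 0.05 over all of them. Changes are on the log2(FPKM + 1) scale and understate those of low genes. The code was tested on simulated data. Alternatives were a pseudocount of 0.1, no filter, a filter at 5 FPKM, quantile normalisation, single libraries correlated within an animal, the animal or library number as a block, 1 fit of all tissues, WT animals alone, and leaving out each animal or library.

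Every member is named. Of 87 other pathway genes in 5 lists, 84 were listed, and up to 4 past the threshold with the smallest p are named per comparison. Members and lists were chosen with earlier results of these data known. Of the genes most like a member, 1 is not reported here.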

Additional observations from a re-analysis of the deposited data

Results flagged for a closer look

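Among 140 groups of 4 libraries (10 genes, KO or WT, 7 tissues), 9 had 1 library far from the other 3. Chance would give about 1 in 20 groups if the 4 values were independent. That rate does not hold here, since each group is 2 repeat libraries of each of 2 animals. Groups with all libraries at 0 could not be flagged but are counted. All 9 concern CXCL1, CCL2 or IL6, genes at or near 0 in those tissues. CXCL1 was listed at 1.10 FPKM in library 1 of KO2 brain, 1.22 FPKM in library 2 of KO2 muscle and 2.68 FPKM in library 2 of KO2 thymus, with the other KO libraries of each tissue at 0. In WT heart it was at 4.52 FPKM in library 1 of WT3 and at 0 in the rest. CCL2 was at 12.6 FPKM in library 1 of KO2 heart, and at 4.91 FPKM in library 1 of WT2 heart, with the other libraries of each genotype at 0. It was at 7.44 FPKM in library 1 of WT3 brain, with the rest of WT at 0, and at 0 in library 1 of WT3 muscle, where the other 3 WT libraries had 2.33 to 2.65 FPKM. IL6 was at 0.668 FPKM in library 1 of KO2 thymus and 0.188 to 0.233 FPKM in the other KO libraries. In each of the 9 the repeat library of the same animal did not share the value.

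The KO change of CXCL1 was called as differing among the 7 tissues (F test, limma adjusted p = 0.00042). Both KO lungs lay above both WT lungs, with most libraries of the other tissues at 0. The call was lost without WT3 and with a pseudocount of 0.1. It reached the filter of this fit only through the KO lungs, and the spread behind the p came from all 7 tissues.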

How the results depend on the processing

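Values here are before the all-gene median was subtracted. Among counts of members passing, 146 stayed within 1.5 times the reported count, 15 were higher and 15 lower. Among values of members and named pathway genes, 738 kept their direction and side of the threshold, 31 passed newly, 82 no longer passed and 9 reversed. Where an animal or library was left out, the lone one is assumed to vary like the other group, and the causes of the changes were not tested.

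Counts of members passing changed as follows. Between KO and WT in lung 1 passed with the animal number as a block (CXCL1, adjusted p = 0.02, limma) and 1 in 1 fit of all tissues, against 0 reported. Left-out animals gave 0 to 5 in brain, 0 to 1 in thymus, lung and kidney, 0 to 2 in the mean of 7 tissues, and 0 to 3 in the F test, where a pseudocount of 0.1 and a filter at 5 FPKM each gave 0. Against the other 6 tissues, left-out animals gave 3 to 8 in brain, 2 to 4 in muscle, 1 to 3 in liver and 0 to 1 in kidney. Muscle had 3 with a pseudocount of 0.1, 3 with no filter and 1 with quantile normalisation, liver 2 with the pseudocount and 2 with WT animals alone, lung 7 at the 5 FPKM filter (3 drop out) and kidney 3 with quantile normalisation. Fetal muscle had 1 with no filter, 0 at the 5 FPKM filter, 1 with quantile normalisation, and 1 to 3 with a library left out.

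Reversals were few. Leaving out animals gave NFKB1 −0.07 to 1.23 in brain, CCL2 −1.02 to 3.62 in thymus, −0.09 to 2.47 in kidney and −0.85 to 1.96 in the mean of 7 tissues, each lowest without KO2 and highest without KO3. IL1B in brain against the other tissues was −0.33 with a pseudocount of 0.1, −0.73 with WT alone and −0.99 to 0.56 with an animal left out. TNFAIP3 in kidney against the other tissues was 0.12 with WT alone, and CCL2 in fetal muscle ran from −3.61 to 0.42.

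Counts over all genes moved more. Left-out animals gave 0 to 2369 genes in brain (0 reported), 103 to 367 in muscle (281), 18 to 831 in thymus (1), 28 to 338 in liver (134), 13 to 290 in heart (22), 0 to 338 in lung (0), 182 to 1621 in kidney (806), 48 to 1018 in the mean (74) and 94 to 3896 in the F test (861), and a left-out library 0 to 1377 in fetal brain (526) and 1905 to 6756 in fetal muscle (4687). With no filter, 0 genes passed in each of the 7 tissues, the mean and fetal brain, 1468 in the F test and 2488 in fetal muscle. Quantile normalisation gave 14 in muscle, 19 in liver, 0 in heart, 2 in lung, 7 in the mean and 234 in fetal brain. The filter at 5 FPKM gave 180 in muscle, 3 in thymus, 0 in heart, 444 in the F test, 3012 in fetal muscle and 4253 to 6014 in the tissue comparisons, fewer genes being tested. A pseudocount of 0.1 gave 0 in thymus, 6 in heart and 352 in the F test. Libraries correlated within an animal gave 89 in brain, 9 in thymus, 430 in liver, 57 in lung and 1566 in kidney, and 1 fit of all tissues 176 in brain, 33 in thymus, 683 in liver, 55 in heart and 183 in lung.

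The replicate numbers did not pair the animals: deviations of same-numbered animals correlated at −0.09 to 0.11 within tissues. The block changed 1 further call, IER3 in kidney (adjusted p = 0.055), and moved counts of genes to 0 in thymus, 233 in liver, 226 in heart and 21 in lung. In fetal brain the library numbers correlated at −0.24, and a crossed pairing, chosen after seeing the data, gave 1101 genes and 0 members. The search for promoter motifs was not run. Depth is unknown, and CXCL1 and CCL2, often listed at 0, are the least precise members.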
